A study of Homo sapiens with 6 samples.

Results

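The genes described here are 39 genes of glycolysis and pyruvate handling other than PKM, chosen by name: glucose and lactate carriers, glycolytic enzymes and their regulators, lactate dehydrogenases, mitochondrial pyruvate carriers, and the pyruvate dehydrogenase complex with its kinases and phosphatase. They were followed in NCI-H1975, an established human lung adenocarcinoma (LUAD) line. The data consist of junction reads, which are sequencing reads that cross the border between joined exons, counted for alternative splicing events of 5 types. Of 213 events listed for these genes, 188 in 32 genes averaged 10 reads or more per library, out of 66395 such events and 10147 genes in the whole data set. HK2, ALDOC, PGAM1, LDHB, SLC2A1, PDHX and PDK3 had no listed event and have no value here, which says nothing about their expression.

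Control cells received the empty PCDNA3.1 plasmid and SAM68 cells the PCDNA3.1-SAM68 plasmid, both at 2 µg per well by lipofection, and RNA was taken after 48 h. There were 3 libraries per group, described by the study as biological replicates of transient transfection in 1 cell line. SAM68, encoded by KHDRBS1, is an RNA-binding protein that regulates splicing. Per library, between 16951876 and 19737729 junction reads fell on skipped exon events. The libraries stand in lists without replicate numbers, so the numbers used below are positions in a list.

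Glycolysis breaks glucose down to pyruvate. Hexokinase traps glucose in the cell, phosphofructokinase commits it to the pathway, aldolase and triosephosphate isomerase yield the sugar phosphate that GAPDH oxidises, and PGK1, the phosphoglycerate mutases, enolase and pyruvate kinase carry it to pyruvate. LDHA turns pyruvate into lactate, which many tumour cells export even when oxygen is present, whereas the pyruvate carriers and the pyruvate dehydrogenase complex send it into the mitochondrion.

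The sequences below are splice junctions of the events that the splicing results turn on. The first set gives the outer junctions of the only 3 member events whose adjusted p passed 0.05, with the last 12 bases of the upstream exon in lower case and the first 12 bases of the downstream exon in capitals. They were read from hg38 in the sense of each gene, and all 6 introns began with GT and ended with AG.
GAPDH, junction nearer the 5′ end (intron chr12:6537011-6537100, plus strand): gagaaggctgggGCTCATTTGCAG
GAPDH, junction nearer the 3′ end (intron chr12:6537997-6538100, plus strand): gctcatttcctgGTATGACAACGA
ENO1, junction nearer the 5′ end (intron chr1:8871987-8874823, minus strand): tcacctcaaaagGTCTCTTCAGAG
ENO1, junction nearer the 3′ end (intron chr1:8868058-8870451, minus strand): ctggttagcaagAAACTGAACGTC
LDHA, junction nearer the 5′ end (intron chr11:18396969-18399430, plus strand): atcttaatgaagGACTTGGCAGAT
LDHA, junction nearer the 3′ end (intron chr11:18401011-18402839, plus strand): tttcaaatccagTGGATATCTTGA
The last sequence is the tandem acceptor of the final intron of ADPGK (chr15:72752878-72752907, hg38, minus strand), a pair of AG ends 3 bases apart, both in capitals, of which the first gives an exon longer by 3 coding bases.
ADPGK acceptor: tgtttttgttAGcAGgtctttcccgcggtg

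The reference genes KHDRBS1 and PKM were read first. Levels are reads of the most-read event of a gene divided by the sum of such reads in the library and scaled so that the sum is the same in all libraries (reads per 1000000 reads, rpm), and fold changes are on the scale of log2(rpm + 0.5). KHDRBS1 had 311, 329 and 316 rpm in control and 1232, 1261 and 1277 rpm in SAM68 cells, a log2 difference of 1.98 ± 0.047 (SE, adjusted p = 1.15e-21, limma). PKM, the pyruvate kinase gene, had 4855, 4728 and 4750 rpm in control and 6356, 6052 and 6350 rpm in SAM68 cells, a log2 difference of 0.39 ± 0.032 (SE, adjusted p = 1.52e-08, limma, but 0.349 without a trend in the variance). Of its 12 events 7 were higher, with log2 differences from -5.83 to 1.56, and its most-read SE event differed by 0.30. Both groups of libraries were apart in both genes, in the direction of the labels for KHDRBS1. Reads of the KHDRBS1 gene and of the plasmid cannot be told apart here. Of 10 epithelial markers only KRT8, KRT18, KRT7 and MUC1 had a testable event, and KRT18 and KRT8 were read most, at means of 2960 and 1687 reads. KRT7 and MUC1 had means of only 16 and 15.5 reads, little above the minimum of 10. Of 8 markers of leukocytes, endothelium and fibroblasts only CD68, a lysosomal protein, had one, at 576 reads.

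The members spanned more than 3 orders of magnitude in level. Between genes, levels are compared as junction reads per base of effective length, scaled to the same sum in each library as for rpm. On this scale the control mean was 8553 ± 93.3 for GAPDH, 2536 ± 20.7 for ENO1, 1413 ± 17.8 for ALDOA and 1390 ± 73.1 for TPI1 (SD, n = 3). It was 933 ± 4.45 for BSG, the chaperone of the lactate carriers, 703 ± 22.6 for LDHA, 542 ± 10.6 for PGK1 and 517 ± 9.78 for GPI. These 8 genes stood above a gap, since the next, PDHA1, was at 208 ± 17.3. The lowest were PFKFB4 at 8.26 ± 1.97, PFKFB2 at 7.12 ± 0.591, PDK1 at 6.43 ± 2.12 and ENO3, the muscle enolase, at 5.14 ± 2.68. Among genes that encode the same enzyme, ENO1 lay far above ENO2 (27.4 ± 0.262) and ENO3. PFKP (167 ± 0.403) lay above PFKM (107 ± 13.3) and PFKL (73.2 ± 9.66), of which the last 2 differed by more than either SD. In rpm, however, PFKM and PFKL were closer, at 95.3 ± 11.9 and 83.2 ± 10.9. Each level rests on 1 event per gene, and the SD does not cover differences between events.

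**Figure D1:**
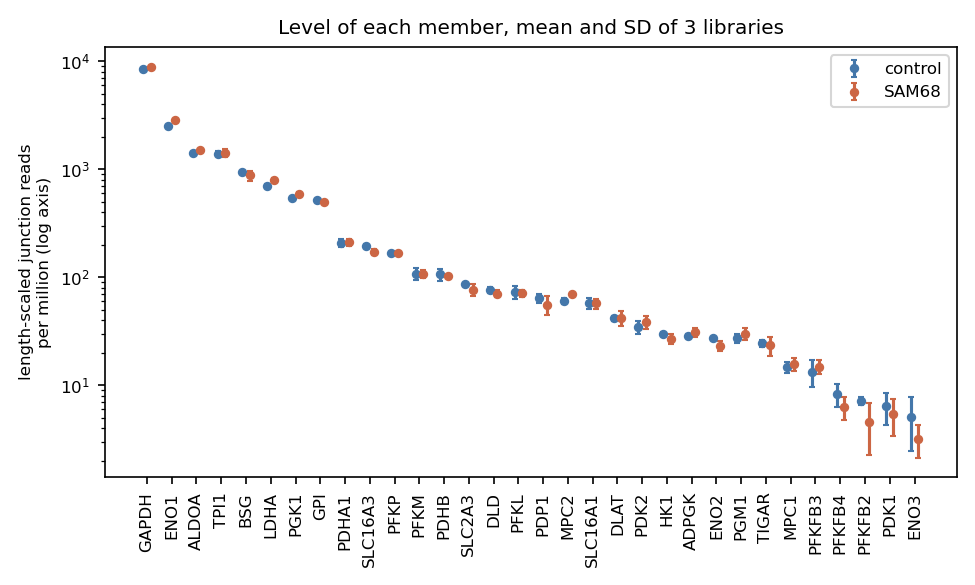
Length-scaled junction reads (vertical, scaled as rpm, log axis) of the 32 member genes in control and SAM68 libraries, with points for the mean and bars for the SD of 3 libraries. GAPDH was highest (8553 in control) and ENO3 lowest (5.14).

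SAM68 cells showed small differences in the junction reads of these genes. ENO1, the main enolase, was the 1 member of 32 that passed the test (adjusted p under 0.05, limma over all genes), against 0.414% of all genes tested. The 42 genes called over all became 5, 4 and 10 without control library 1, 2 or 3, 10, 101 and 88 without SAM68 library 1, 2 or 3, and 1 without a trend in the variance. Of the 42, 12 were higher and 30 lower, or 14 and 11 after scaling by the median of ratios and 12 and 13 after scaling by the upper quartile, and 5 of the 42 reached a log2 difference of 1, none of them a member. Of the 32 members, 15 were higher and 17 lower in SAM68 cells (17 and 15 under either other scaling), with a median log2 difference of -0.0053, beside -0.035 over all genes. At an unadjusted p under 0.05 there were 6 members, 5 higher and 1 lower, or 18.8% beside 12.1% of all genes.

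ENO1 (chr1:8861000-8879190, GRCh38, minus strand) had 2467, 2452 and 2495 rpm in control and 2769, 2778 and 2749.6 rpm in SAM68 cells. The groups did not overlap, and the log2 difference was 0.16 ± 0.035 (SE, 95% interval 0.091 to 0.23, adjusted p = 0.0271, limma). All 16 tested ENO1 events had more reads in SAM68 cells, with log2 differences from 0.016 to 0.21, although these events share many junctions. The call was lost without any 1 of 4 libraries, without a trend in the variance (adjusted p = 0.542, limma) and with no minimum of reads (adjusted p = 0.0614, limma). The adjusted p (limma) was 0.202, 0.184 and 0.0948 without the control library in position 1, 2 or 3 and 0.121 without SAM68 library 1, while it stayed at 0.0297 and 0.00989 without SAM68 libraries 2 and 3, and the log2 difference stayed between 0.16 and 0.17.

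In all, 8 members had no overlap between the groups (25% of members, against 16.8% of all genes tested), 6 of them higher and 2 lower in SAM68 cells. Apart from ENO1, none of the 8 passed the test. The level is that of the most-read event, and the other events of a gene did not always share its direction.

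LDHA had 757, 783 and 735 rpm in control and 864, 811 and 878 rpm in SAM68 cells, a log2 difference of 0.17 ± 0.047 (SE, adjusted p = 0.112, limma). PGK1, which makes the first ATP of the pathway, had 577, 593 and 599 rpm against 662, 660.1 and 608 rpm, a log2 difference of 0.12 ± 0.049 (SE, adjusted p = 0.287, limma). ALDOA had 1001, 1013 and 989 rpm against 1073, 1062 and 1074 rpm, a log2 difference of 0.096 ± 0.041 (SE, adjusted p = 0.345, limma). In each of the 3 genes every SAM68 library lay above every control library, by a narrow margin in PGK1. Of the 4 LDHA events, however, 3 were higher and 1 lower in SAM68 cells. The lower one, an SE event of 3678 reads, had 635.9, 637.5 and 632.8 rpm in control and 621, 629.8 and 595 rpm in SAM68 cells, so its groups were apart in the opposite direction (log2 -0.047). All 5 ALDOA events were higher in SAM68 cells, and PGK1 had 1 event only. Without SAM68 library 2, its lowest, LDHA passed the test at a log2 difference of 0.2 (adjusted p = 0.0418, limma).

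GAPDH, the deepest member with a mean of 58094 reads, had 9753, 9599.7 and 9812 rpm in control and 10088, 10117 and 9959 rpm in SAM68 cells. The groups were apart, but the log2 difference was only 0.049 ± 0.028 (SE, 95% interval -0.0095 to 0.11, adjusted p = 0.519, limma). Of its 8 events 5 were higher, with log2 differences from -0.11 to 0.23. TPI1, the isomerase before it, overlapped between groups, with 1476, 1506 and 1630 rpm against 1485, 1709 and 1477 rpm. ENO2, the neuronal enolase, had 31.1, 30.7 and 31.3 rpm against 24.0, 29.6 and 25.5 rpm, lower in every SAM68 library, with a log2 difference of -0.24 ± 0.14 (SE, adjusted p = 0.523, limma). Its 7 events ranged from -0.33 to 0.16 with 3 of them higher, and an event of nearly the same depth (166.5 reads) overlapped between groups at 0.018. ENO3 had 1.47 to 5.18 rpm over the 6 libraries and a mean of 14.7 reads, too few to place its log2 difference (-0.52 ± 0.45, SE).

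**Figure D2:**
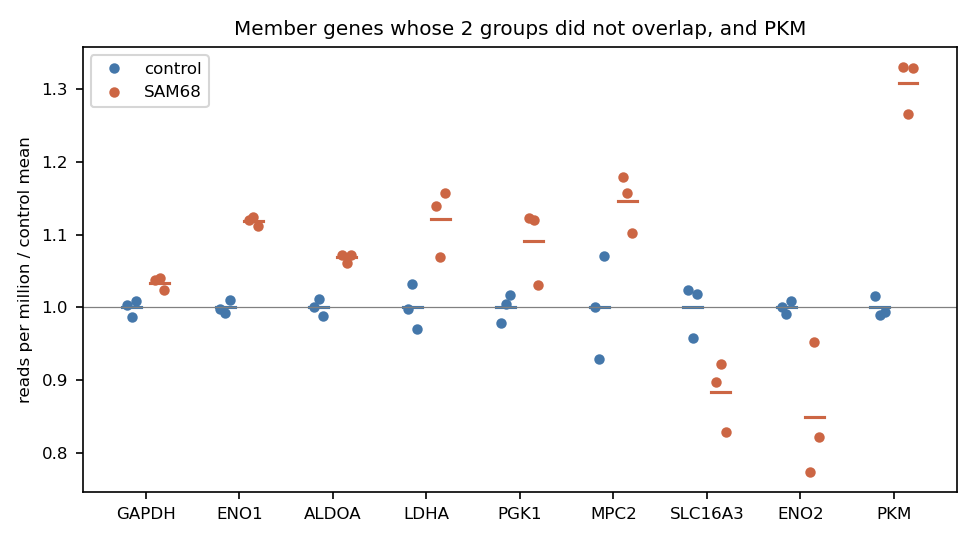
The rpm value in each library divided by the control mean of the gene (vertical), for the 8 member genes whose groups did not overlap and for PKM as a reference; points are libraries and lines the group means. The SAM68 libraries of ENO1 lie close together at 2749.6 to 2778 rpm against 2452 to 2495 rpm in control, and those of ENO2 lie between 24.0 and 29.6 rpm, below the control libraries.

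In the upper part of the pathway no member passed the test. HK1, the hexokinase with values here, had 33.1, 34.9 and 33.5 rpm in control and 34.1, 28.8 and 27.7 rpm in SAM68 cells, a log2 difference of -0.17 ± 0.13 (SE). GPI, which turns glucose 6-phosphate into fructose 6-phosphate, differed by -0.046 ± 0.049 (SE, log2). The 3 phosphofructokinase genes had log2 differences of 0.0076 ± 0.065 for PFKP, 0.0078 ± 0.096 for PFKM and -0.039 ± 0.099 for PFKL (SE). Groups overlapped in all 5 genes. The ADP-dependent glucokinase ADPGK (log2 0.10 ± 0.13), the phosphoglucomutase PGM1 (log2 0.14 ± 0.18) and TIGAR, which lowers fructose 2,6-bisphosphate (log2 -0.088 ± 0.16), overlapped as well. The bifunctional enzymes that set fructose 2,6-bisphosphate, PFKFB2, PFKFB3 and PFKFB4, were read 20, 91.2 and 24.5 times per library on average, and their log2 differences of -0.65, 0.13 and -0.36 had SEs of 0.39, 0.20 and 0.34.

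Among the carriers, SLC16A3, the lactate exporter MCT4, had 226, 211 and 225 rpm in control and 198, 204 and 183 rpm in SAM68 cells. Every SAM68 library was below every control library, with a log2 difference of -0.18 ± 0.066 (SE, adjusted p = 0.244, limma), and both of its events were lower. SLC16A1, which encodes the other main lactate carrier MCT1, differed by -0.0077 ± 0.11 and BSG by -0.096 ± 0.055 (SE, log2). BSG had 1055, 1054 and 1065 rpm in control and 1003, 1098 and 881 rpm in SAM68 cells, so that the wide spread of the SAM68 libraries covered the control values. None of its 7 events was higher in SAM68 cells by the mean (log2 -0.20 to -0.0031), and 2 SE events of 1966 and 1969 reads had groups that did not overlap (log2 -0.13 and -0.14). The glucose carrier SLC2A3 (GLUT3) had a log2 difference of -0.18 ± 0.097 (SE) with overlapping groups.

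Where pyruvate enters the mitochondrion, MPC2, a subunit of the pyruvate carrier, had 63.7, 59.1 and 68.2 rpm in control and 75, 73.7 and 70.1 rpm in SAM68 cells. These groups did not overlap, and the log2 difference was 0.20 ± 0.096 (SE, adjusted p = 0.414, limma). The other MPC2 event, of 124 reads, had 22.4, 26.8 and 19.6 rpm against 18.8, 26.6 and 11.6 rpm, a log2 difference of -0.33 with overlap, so the direction depended on the event. Its partner MPC1 differed by 0.087 ± 0.18 with overlapping groups. The pyruvate dehydrogenase subunits PDHA1, PDHB, DLAT and DLD had log2 differences of 0.018 ± 0.075, -0.059 ± 0.094, -0.0029 ± 0.12 and -0.12 ± 0.091 (SE). The kinases that switch the complex off, PDK1 and PDK2, differed by -0.24 ± 0.32 and 0.14 ± 0.14, and the phosphatase PDP1, which switches it on, by -0.22 ± 0.14 (SE, log2). None of the 7 enzyme genes passed the test and the groups overlapped in each.

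**Figure D3:**
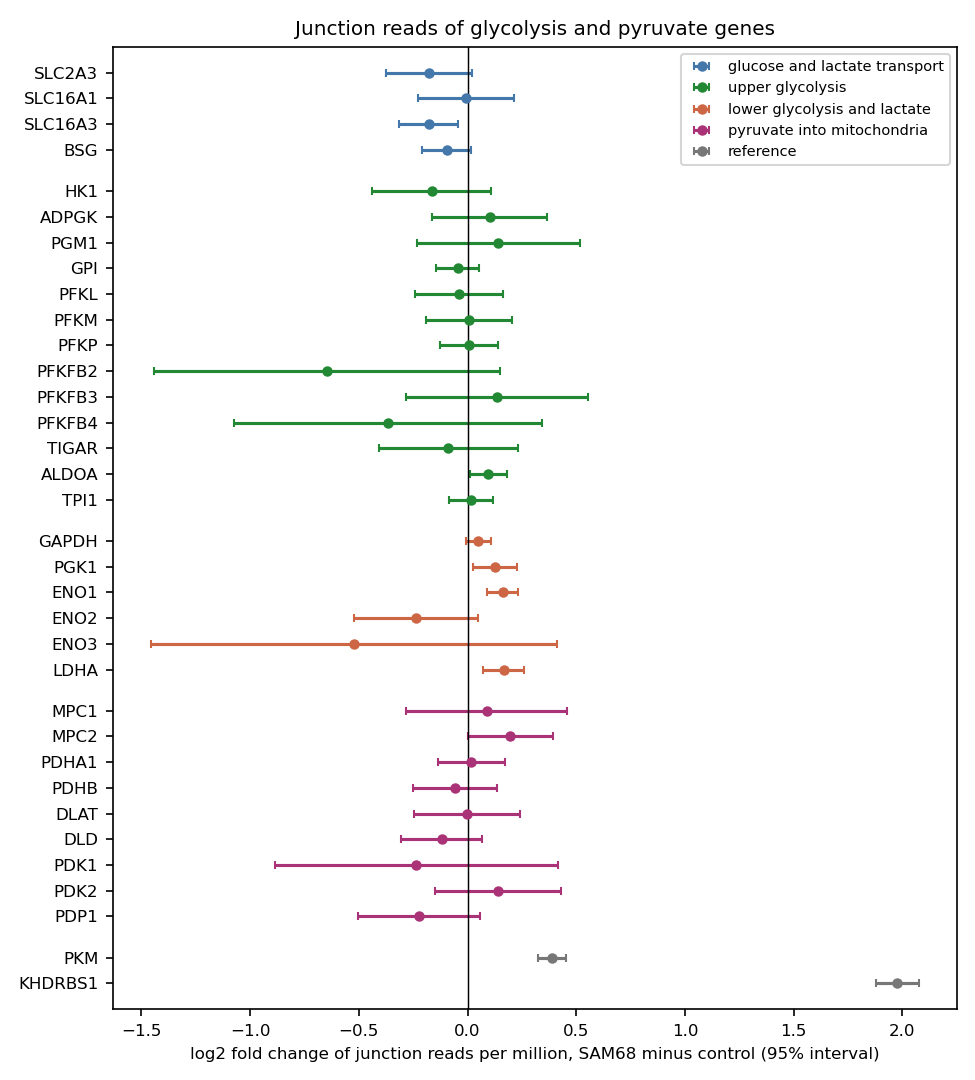
Log2 difference of junction reads (rpm) between SAM68 and control cells (horizontal) with 95% intervals from limma for the 32 member genes, coloured by role, and for PKM and KHDRBS1 as references. Members lie between -0.65 and 0.20, with the widest intervals in the genes read least, and PKM (0.39) and KHDRBS1 (1.98) lie beyond every member on the right.

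The intervals of the genes, narrower where depth was high, hold for the most-read event only. In 13 members the 95% interval of this event lay within ±0.25 on the log2 scale, in 24 within ±0.5 and in 29 within ±1. The 11 members with a mean of at least 1000 reads had absolute log2 differences of at most 0.18 and SEs of at most 0.075, whereas the 6 members with under 100 reads had SEs from 0.18 to 0.45. Other deep events of a gene could lie outside its interval, as did the GAPDH MXE event of 57743 reads (log2 0.14), an ALDOA event of 3913 reads (log2 0.23) and the lower LDHA event given above. In ENO1, SE events of 13582 and 4891 reads lay below its interval (log2 0.058 and 0.016), the second with overlapping groups. GAPDH, ENO1, LDHA, PGK1, TPI1 and other members have intron-less pseudogene copies in the genome, and how reads that match several places were treated is not given in the sources used here. Their levels are therefore uncertain.

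In neighbouring pathways the count of called genes was 0, which at 0.414% of all genes is no different from the background. None of 7 tested pentose phosphate genes, 19 citric acid cycle genes, 7 genes of glycogen and gluconeogenesis, 7 further isoenzymes and regulators of glycolysis and 12 regulators of glycolytic gene expression passed the test in either direction. Their median log2 differences were 0.028, 0.024, 0.067, -0.23 and 0.029, in that order, beside -0.035 over all genes. No splicing event of any of these lists was called either, again at a low background, given below for all events.

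Splicing was read from the same events. Percent spliced in (PSI) is the share of the inclusion form after division by the effective length of each form, and events counted as called if their adjusted p was under 0.05 and they differed by 10 points or more. None of the 188 member events was called in the quasi-binomial test, in which 17 of 66394 events (0.0256%) were called, in 15 genes (6 to 24 events without single libraries), so that a count of 0 among the members is no different from this background. Among member events, 23 had an unadjusted p under 0.05 (12.2%, beside 8.42% of all events), 149 differed by less than 2 points and 177 by less than 5 points. The median absolute difference was 0.351 points, beside 1.24 points over all events, at a median depth of 395 reads against 111 reads. The 11 events that differed by 5 points or more had means between 11 and 385 reads.

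Most member events showed 1 form almost exclusively. Whether this bears on the median above was not tested. In control cells PSI was above 95% in 118 member events and below 5% in 41, and 23 lay between 10% and 90%. Of the 133 skipped exon (SE) events, 103 concern an exon of the canonical GENCODE 44 transcript. Outside mutually exclusive exons (MXE), only 4 events had a control PSI between 10% and 90%: an exon of ALDOA, 1 of PDK1, 1 of PDP1 and the tandem acceptor of ADPGK printed above.

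The 52-base ALDOA exon (chr16:30065876-30065927, GRCh38), without coding bases, was included at 89.1, 88.7 and 91.8% in control and 90, 88.2 and 89.6% in SAM68 cells. These values hold for 1 pair of neighbours, at 2433 reads. With another pair, at 2251 reads, the same exon was included at 99.9, 99.7 and 99.5% against 99.4, 99.7 and 99.4%. The 35-base PDP1 exon was included at 33.7, 29.3 and 34.1% against 28.4, 35.4 and 27.4% where it was counted with its deeper neighbours, at 217 reads. The longer form of the ADPGK acceptor reached 47.7, 43.2 and 55.2% against 45.6, 41.8 and 45.1%, at 86.5 reads. The 2 groups overlapped in all of these (adjusted p = 0.674 and 0.565 for ALDOA, 0.66 for PDP1 and 0.71 for ADPGK, quasi-binomial test with Benjamini-Hochberg adjustment). The 60-base PDK1 exon (chr2:172562741-172562800), all of it coding, was included at 17.8, 10.8 and 23.1% in control and 20.9, 25.6 and 2.90% in SAM68 cells, with overlap, at 24.8 reads.

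**Figure D4:**
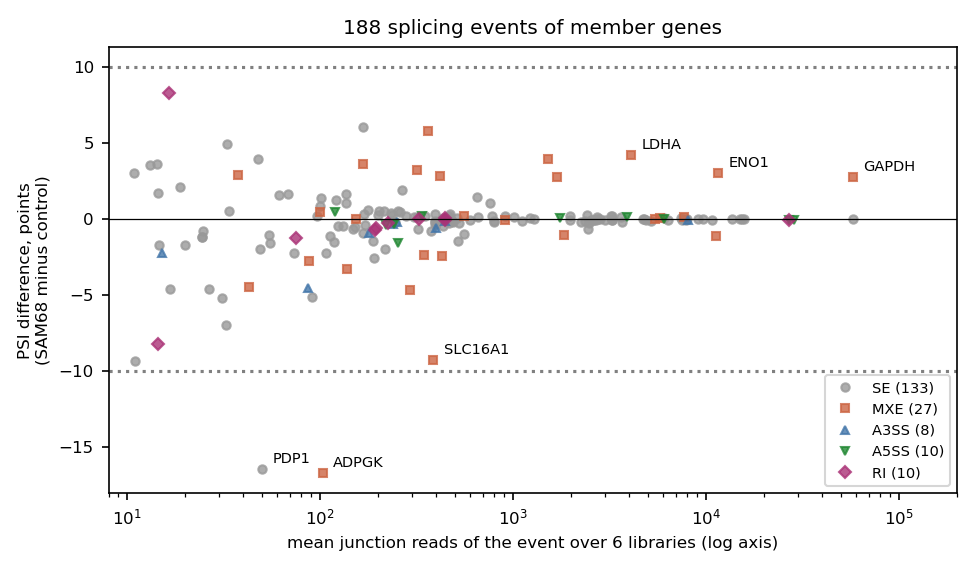
Difference of PSI between SAM68 and control cells in points (vertical) against the mean junction reads of the event over 6 libraries (horizontal, log axis) for the 188 member events, by event type; dotted lines mark ±10 points. The 2 events beyond a line, in ADPGK and PDP1, have 103 and 49.8 reads, and 55 of the 62 events with at least 1000 reads differ by less than 1 point, the exceptions all being MXE events such as those of LDHA, ENO1 and GAPDH.

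Without regard to size, 3 member events, all MXE, passed an adjusted p of 0.05, against 0.0964% of all events, and none of the 3 reached 10 points. In MXE events the PSI is the share of the exon nearer the 5′ end of the gene. For the GAPDH pair it was 42.8, 44.5 and 43.1% in control and 46.0, 44.9 and 47.8% in SAM68 cells, a rise of 2.77 points at a mean of 57743 reads (adjusted p = 0.00198, quasi-binomial test). For the ENO1 pair it was 62.7, 63.7 and 64.2% against 65.1, 66.5 and 68.0%, a rise of 3.04 points (adjusted p = 0.0267, quasi-binomial test). For the LDHA pair it was 61.3, 62.1 and 61.6% against 66.1, 63.8 and 67.7%, a rise of 4.21 points (adjusted p = 0.0289, quasi-binomial test).

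The groups did not overlap in any of the 3, which was so for 14 of 188 member events (7.45%, against 6.12% of all events). The spread between libraries of a group was, however, far above counting error, with a dispersion of 33.0 in GAPDH, 6.90 in ENO1 and 3.48 in LDHA, while the moderated values used in the test were 7.16, 2.94 and 2.38. With its own dispersion in place of the moderated one, none passed (adjusted p = 0.863 for each, quasi-binomial test). The exact permutation test gave 0.1 for each, the smallest p that 3 against 3 libraries allow. Without single libraries the adjusted p ranged from 3.51e-05 to 0.275 for GAPDH, from 0.0231 to 0.469 for ENO1 and from 0.00559 to 0.393 for LDHA.

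The annotation also joins the exons of these pairs in 1 mRNA. In all 3 pairs both exons lie in the canonical GENCODE 44 transcript, joined to the outer exons by the junctions printed above, and only for LDHA are the alternative junctions annotated too. The same held for most member MXE events: in 25 of 27 (92.6%) both exons are part of 1 annotated transcript with these outer junctions, as in 7316 of 8791 tested MXE events (83.2%), and this was so for all 19 with a control PSI between 10% and 90%. The 25 pairs hold 40 distinct exons, of which 34 also have an SE event, and 32 of these were included at over 95% in both groups in their most-read SE event. In ENO1, for example, the exons at chr1:8871891-8871986 and chr1:8870452-8870510 had an SE PSI of 100 and 99.96% in control cells. Where both exons are in nearly every transcript, reads of the 2 MXE forms can come from the same mRNA, one from its junction nearer the 5′ end and the other from that nearer the 3′ end. The PSI of such a pair is then a ratio of coverage along the mRNA, and the deposited sums do not tell which junctions were read.

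Over the 25 pairs the differences went both ways. The PSI, the share of the exon nearer the 5′ end, was higher in SAM68 cells in 14 and lower in 11, with a median of 0.055 points beside -0.32 points over the 7316 pairs of all genes. The median absolute difference was 2.88 points in members and 2.85 points in all pairs. Another ENO1 pair of 11232 reads had a PSI of 52.2 ± 0.598% in control and 51.1 ± 1.89% in SAM68 cells (SD, n = 3), with overlapping groups.

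Among events with at least 50 reads, the 2 widest member differences, in ADPGK and SLC16A1, were also found in such pairs. In the ADPGK pair (exons chr15:72771783-72771845 and chr15:72760407-72760527) the PSI was 60.1, 45.4 and 59.4% in control and 36.7, 33.7 and 44.4% in SAM68 cells, a difference of -16.7 points at 103 reads (adjusted p = 0.365, quasi-binomial test). For SLC16A1 it was 65.2, 62.8 and 70.9% against 56.2, 57.8 and 57.2%, a difference of -9.24 points at 385 reads (adjusted p = 0.253, quasi-binomial test). For PFKM it was 35.8, 40.2 and 34.3% against 42.0, 41.0 and 44.9%, a difference of 5.82 points at 361 reads (adjusted p = 0.629, quasi-binomial test). The groups were apart in all 3, by less than 1 point in ADPGK and PFKM. In ADPGK both exons had an SE PSI above 97% in each group in their most-read SE event, and the lowest value of a library in any of their SE events was 88.2%.

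Smaller differences were seen in GPI, PDHB, PFKL and ENO2. For the GPI pair with the larger difference the PSI was 40.7, 41.3 and 42.5% against 45.2, 46.1 and 45.0%, and for PDHB it was 58.4, 58.9 and 56.9% against 51.4, 55.3 and 53.5%. These 2 pairs did not overlap between the groups (adjusted p = 0.362 and 0.734, quasi-binomial test). For PFKL it was 45.5, 46.6 and 52.4% against 50.9, 48.3 and 55.0%, and for ENO2 36.7, 30.7 and 29.6% against 24.2, 31.7 and 31.3%, both with overlap.

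Further pairs did not separate the groups. TPI1, at 7676 reads, had 62.1, 64.9 and 65.2% against 63.6, 65.8 and 63.1%. The most-read pair of GPI had 66.7, 66.5 and 67.8% against 65.0, 66.6 and 66.5%. The most-read pairs of PDHB and PFKL had 51.0, 51.4 and 45.9% against 41.5, 50.5 and 49.0%, and 49.1, 47.6 and 62.1% against 53.8, 55.0 and 58.7%. DLD, the dihydrolipoamide dehydrogenase of the complex, had 99.0, 100 and 100% against 94.6, 99.0 and 97.1% at 87.8 reads. The groups overlapped in all 5 pairs.

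**Figure D5:**
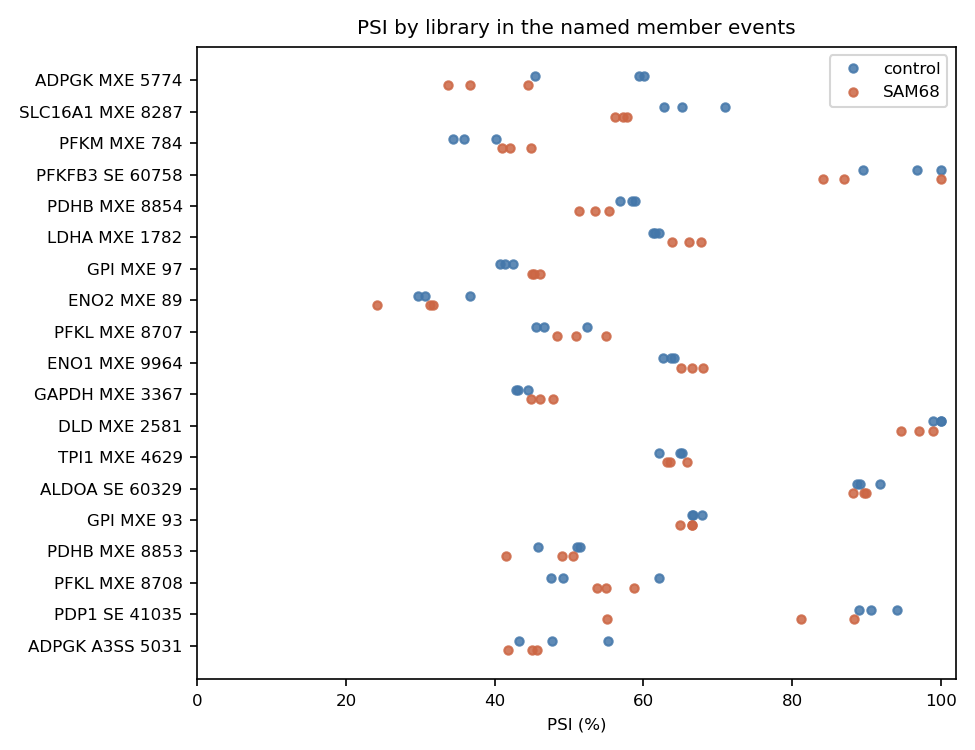
PSI in percent (horizontal) of each library for 19 member events (rows), with control libraries drawn above SAM68 libraries in each row. The LDHA, ENO1 and GAPDH pairs show narrow control groups and SAM68 libraries shifted up by 2.77 to 4.21 points, the ADPGK pair the widest shift and PDP1 1 SAM68 library at 55.1% apart from the others.

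Cassette exons of PFKFB3 and PDP1 completed the list. The 174-base coding exon of PFKFB3 (chr10:6226192-6226365) was included at 100, 96.9 and 89.5% in control and 100, 84.1 and 86.9% in SAM68 cells (adjusted p = 0.565, quasi-binomial test), with overlap. The PDP1 exon described above, counted with another pair of neighbours, had 90.7, 94.1 and 89.0% against 55.1, 81.1 and 88.3%, a difference of -16.4 points at 49.8 reads (adjusted p = 0.46, quasi-binomial test). This second PDP1 event was named after its values were seen, and 1 SAM68 library carried most of its difference. It is just under the mean of 50 reads that the choice by size asked for.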

How the data were processed

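RNA-seq libraries of NCI-H1975 cells were sequenced in pairs of reads on a NovaSeq. According to the methods and the submitters' processing notes, the authors filtered reads for adaptors, N and low quality, used fastp 0.20.0 and CASAVA 1.4, aligned with HISAT2 2.1.0 to GRCh38 and counted junction reads with rMATS, whose version is not given in the sources used here. The deposited tables hold, per event, lists of inclusion and skipping junction read counts, the effective lengths of both forms and the inclusion level as a fraction between 0 and 1, for both groups. The p-values, FDR and inclusion differences in these deposited tables are the authors' own comparison and were not used. The first list was taken as control from the order of groups in a plot of the study, and KHDRBS1 served as the check. In 275 A3SS events the lists were stored as single numbers with regrouped digits, of which 162 were recovered and 113 left out.

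Of the 66395 events averaging 10 reads or more, 66394 could be tested, in a quasi-binomial model whose dispersion was moderated within each event type (limma 3.58.1, R 4.3.3), with Benjamini-Hochberg adjustment within type. Gene levels were tested with limma on log2(rpm + 0.5) over 10147 genes. The 3 libraries per group are biological replicates per the methods. The p-values rest on the spread between them after moderation over the events of a type or over all genes, not on their own spread alone. The depth of the most-read events was 5444465 to 6331334 reads per library, and replicate libraries of a group differed by more than counting error (chi-square per degree of freedom 3.14 to 4.48). Exons were matched to GENCODE 44. Values per library are given for called genes, for the 12 member events with the largest difference at 50 reads or more and for the 10 most-read events with a control PSI between 10% and 90%, each 1 per gene, and, added after their values were seen, for genes whose groups did not overlap, for HK1, TPI1 and BSG and for the 4 events outside MXE in that PSI range. Members and lists were chosen with earlier results of these data known. Alternatives were other tests, scalings, pseudocounts, read minimums and leaving out each library.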

Additional observations from a re-analysis of the deposited data

How the results depend on the processing

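No called result changed direction under any alternative. The number of member splicing events called stayed at 0 in all alternatives, each left-out library included (range 0 to 0), except that it was 2 in a likelihood ratio test on pooled counts, which ignores the spread between libraries and called 1357 events in all, and 3 without the limit on the PSI difference. The pooled test called ADPGK (adjusted p = 0.00183) and PDP1 (adjusted p = 0.00602). Member events past the adjusted p alone were 3, and became 0 in a limma fit of logit PSI, 0 if each event kept its own dispersion, 0 with no minimum of reads, 1 with all types adjusted together, 23 in the pooled likelihood ratio test and 0 to 2 without single libraries. With 1 shared dispersion per type, an alternative chosen after seeing the data, they were 3. Events called over all genes were 17, against 3, 2 and 3 under the first 3 of these and 222 with the shared dispersion, and 6 to 24 without single libraries (9 without control library 1, 7 and 6 without SAM68 libraries 1 and 3).

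The number of member genes called was 1, and 0 with no minimum of reads (ENO1 adjusted p = 0.0614, limma), 0 without a trend in the variance (ENO1 adjusted p = 0.542 and PKM 0.349, limma, with 1 gene called in all) and 0 with a log2 limit of 1. Without single libraries it ranged from 0 to 2, and the genes called over all genes from 4 to 101, beside 42 with all libraries and 25 under either other scaling. The median log2 difference of the members stayed between -0.059 and 0.026, with a change of sign under some settings, all moves being below 0.06, the SD between libraries of a group of the members' median level. Genes with few reads, such as ENO3, PFKFB2 and PFKFB4, are limited by depth. No paired analysis was possible because the lists carry no replicate numbers.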
